A study of Sus scrofa with 4 samples.

Results

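The genes described here are 6 RNA-binding proteins of the germ line: DND1, DAZL, NANOS3, LIN28A, LIN28B and ELAVL2. The rule lists them by name and uses no measured value, although the list was drawn up with earlier results of these data known. Each was looked up by its gene identifier and then by its gene name. Of the 6, 5 had a row among the 26921 genes or loci of the tables, and NANOS3 matched no row and was not analysed here. RNA was sequenced from 2 libraries of control pig cells and 2 libraries of cells with ZBTB16 knockdown, all labelled as immature spermatogonia from pig testis. The control group carries the genotype label WT, and whether it received a vector the sources used here do not say. The series plans the knockdown with a short hairpin RNA brought into primary cells by a lentivirus, so effects of virus and knockdown cannot be told apart. Age, breed and the number of pigs are likewise unstated there. The labels name 2 independent experiments. The p-values and intervals of knockdown against control do not, however, measure the spread of each gene alone. They rest on the spread of 2 libraries a group, which may be technical and was partly pooled over genes. In the edgeR fit that spread beyond counting error, the common biological coefficient of variation, was 0.0129.

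Germ cells rely heavily on control of mRNA after transcription, and the proteins studied here act at different steps of it. DND1 binds U-rich sites in the 3′ untranslated regions of mRNAs and can recruit the CCR4-NOT deadenylase, which shortens poly(A) tails, and in mice its loss depletes germ cells early. DAZL binds U-rich sites next to a GUU core and works with poly(A)-binding protein to promote translation, while NANOS3 is a zinc finger partner of Pumilio proteins that protects primordial germ cells. LIN28A and LIN28B bind the precursor of the microRNA let-7 and block its maturation, and LIN28A is widely used as a marker of undifferentiated spermatogonia. ELAVL2 belongs to the Hu family, whose members bind AU-rich elements and mostly stabilise the mRNA.

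ZBTB16, the targeted transcription factor, was at 1.77 and 1.76 FPKM (fragments scaled to transcript length and library size) in the control libraries and at 1.37 and 1.34 FPKM in the knockdown libraries. The fitted level fell to 0.779 times control by edgeR's quasi-likelihood test (adjusted p = 0.00338), so ZBTB16 RNA was only partly lower in the bulk RNA. The loss within the cells that express ZBTB16, and its protein, were not measured here. The adjusted p was 0.0858 by DESeq2 and 0.0685 by limma on log2(FPKM + 1), so that call depended on the test. It was also lost in the other limma settings (adjusted p = 0.0719 and 0.101). The libraries held 15983390 to 18500447 expected counts. Of 15763 genes tested, 7319 were called at an adjusted p under 0.05, which is 46.4%, with 22.7% higher and 23.8% lower. The difference between transcript length and effective length, which follows the fragment length, was 324.7 and 325.7 bases in the control and 265.4 and 266.3 bases in the knockdown. It differed by group without overlap, so many results below are also given after removing the trends over transcript length and GC. A gene given without such a value may also have changed in size.

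The most abundant markers of peritubular and Sertoli cells were far above those of germ cells in all 4 libraries. Not every somatic marker was. The germ cell markers summed to 109 to 146 FPKM, most of it UCHL1, and the Leydig cell markers to 170 to 207 FPKM. The macrophage markers summed to 21.4 to 28.1 FPKM and the endothelial markers to 9.4 to 11.7 FPKM. DDX4, an RNA helicase that defines germ cells, was at 2.3 and 1.96 FPKM in the control libraries and 2.01 and 1.86 FPKM in the knockdown libraries. STRA8 was at 0 to 0.06 FPKM, SALL4 at 0.25 and 0.27 FPKM in the control and 0.51 in each knockdown library, and GFRA1 at 0.57 to 0.70 FPKM. The markers KIT, SYCP3, MAEL and TEX15 lay between 2.98 and 7.78 FPKM over the libraries. The germ cell marker with the highest level was UCHL1, at 121.72 and 120.41 FPKM in the control libraries and 89.05 and 85.25 FPKM in the knockdown libraries. Against these stood ACTA2 of peritubular muscle cells at 3198 to 3508 FPKM and CLU of Sertoli cells at 1882 to 1943 FPKM. The defining germ cell markers were therefore present but low, and the level of any germ cell gene in this bulk RNA depends on how many germ cells the culture held. Fewer germ cells and less RNA per germ cell cannot be told apart.

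**Figure D1:**
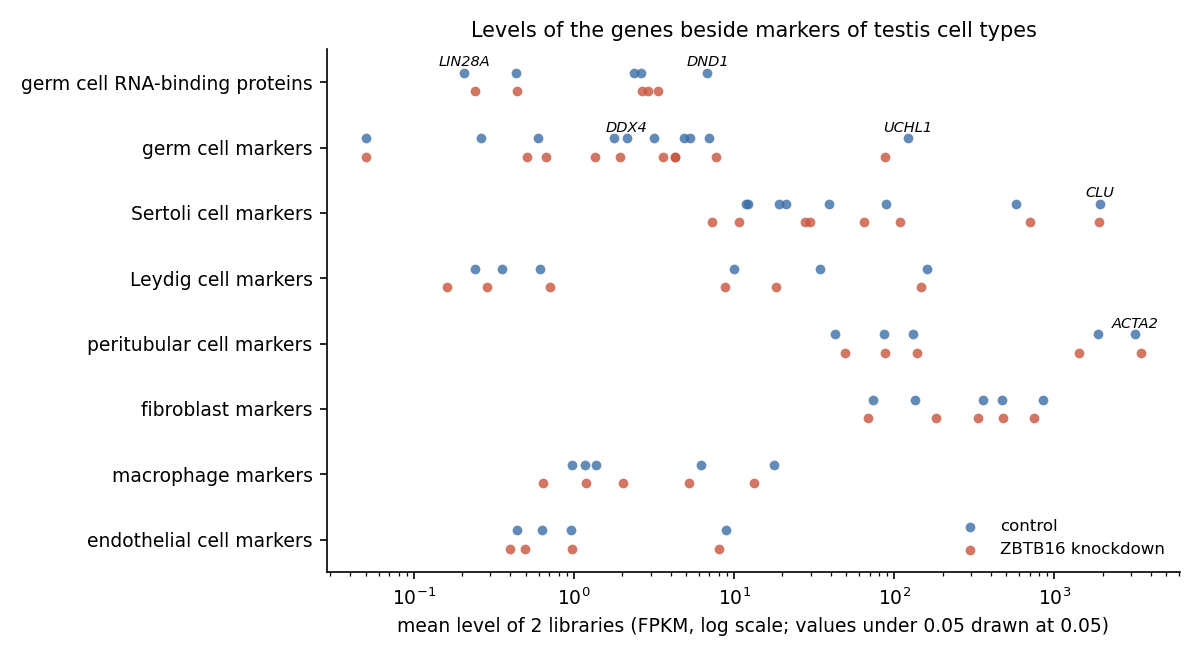
Mean FPKM of 2 libraries per group on a log scale, for the germ cell RNA-binding proteins and for markers of 7 testis cell types, with control in blue and ZBTB16 knockdown in red. DND1 at 6.8 FPKM in the control and the germ cell marker DDX4 at 2.13 FPKM sit far below ACTA2 and CLU.

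DND1 had the highest level of the 5 genes in the control and moved the most. DND1 (chromosome 2, 142384526 to 142387407, minus strand, Sscrofa 11.1, protein-coding) was at 6.77 and 6.84 FPKM in the control libraries and at 3.14 and 2.14 FPKM in the knockdown libraries. The groups did not overlap, and the 2 control libraries were nearly equal while knockdown library 2 was the lowest of all. Non-overlap alone is common here, since 70.4% of the tested genes had it. These levels rest on 168, 157, 87 and 53 counts. DND1 fell to 0.414 times its control level (95% interval 0.338 to 0.508; log2 change -1.27, SE 0.149, edgeR adjusted p = 1.39e-13). In the same fit 23.8% of all tested genes were called lower. By DESeq2 the log2 change of DND1 was -1.28 with a larger SE of 0.235 (adjusted p = 5.56e-07). The mean ± SD was 6.8 ± 0.0495 FPKM in the control and 2.64 ± 0.707 FPKM in the knockdown (n = 2 libraries each). Its rank fell too: 47.1% and 47.2% of tested genes had a lower FPKM than DND1 in the control libraries, against 34.3% and 29.2% in the knockdown libraries. The knockdown libraries differed from each other by a factor of 1.47 in counts scaled to library size, which by an exact binomial test of counting error gave p = 0.0277 and, adjusted over 8 such pairs, 0.111. Without knockdown replicate 1 the log2 change was -1.59, and without knockdown replicate 2 it was -1.03. After removing the length and GC trends the log2 change was -1.05 (edgeR adjusted p = 2.74e-08).

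**Figure D2:**
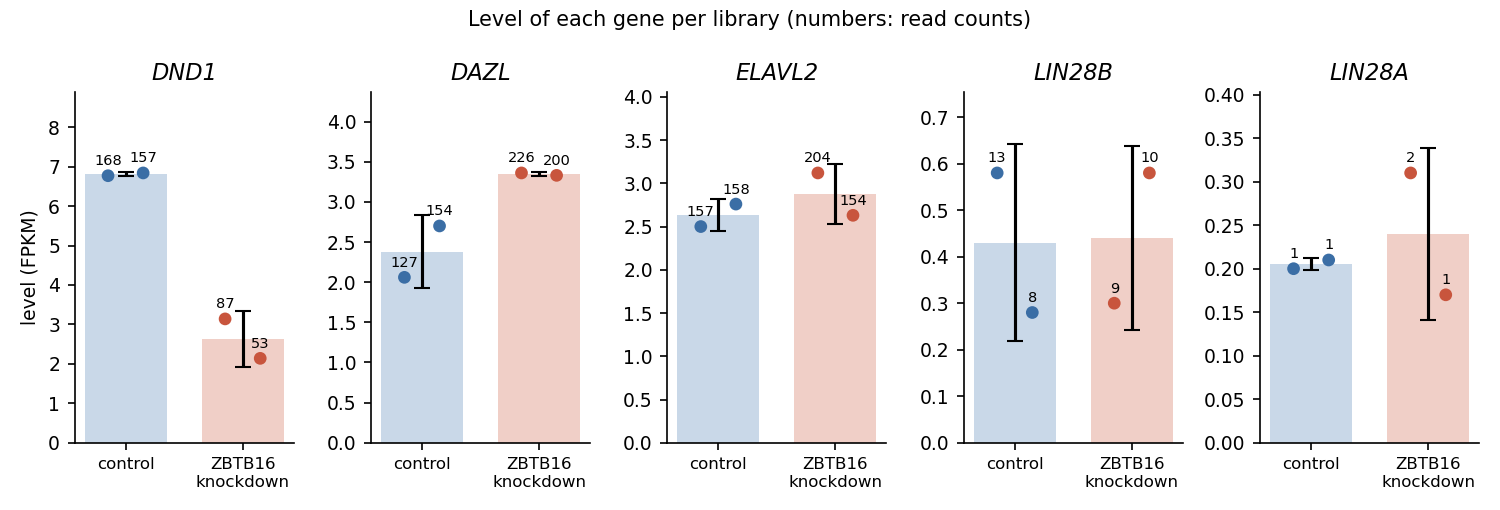
FPKM of each gene in each library (points), with the mean and SD of 2 libraries per group (bars and error bars) and the read count above each point; each panel has its own scale from 0. DND1 is lower in both knockdown libraries, DAZL is higher in both, ELAVL2 and LIN28B overlap between the groups, and LIN28A rests on 1 or 2 counts a library.

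DND1 sits between close neighbours, and part of its last exon is shared. Its transcript has 4 exons and 1761 bases, of which 1062 are coding, and its mean GC content is 65.1%. The gene WDR55, a WD-repeat protein transcribed in the opposite direction, overlaps its last exon by 160 bases. That is 9.09% of the DND1 exons and holds 0 coding bases of DND1. The sources used here do not state whether counting used strand. Without strand, a fragment lying wholly within those 160 bases would fit both genes. The difference between transcript length and effective length was 265.4 to 325.7 bases, more than that stretch, but shorter fragments can occur. The counts of DND1 and of WDR55 were whole numbers in each library. So were those of 83.7% to 84.7% of all genes with counts. Whether DND1 and WDR55 shared fragments was not tested. WDR55 was at 26.5 ± 0.17 FPKM in the control and 17.8 ± 0.212 FPKM in the knockdown (n = 2 each) and fell by 0.49 on the log2 scale (edgeR adjusted p = 2.25e-10). HARS, the cytosolic histidyl-tRNA synthetase, ends 155 bases before the start of DND1 on the same strand. It was at 41.6 ± 1.44 FPKM in the control and 35.0 ± 1.7 FPKM in the knockdown, with a log2 change of -0.17 (adjusted p = 0.00155, edgeR). After removing the length and GC trends HARS was at -0.02 (adjusted p = 0.811, edgeR) and WDR55 at -0.27 (3.49e-04). IK, the next gene, did not pass the test (log2 -0.04, adjusted p = 0.361, edgeR). The FPKM of DND1 divided by that of HARS was 0.167 and 0.161 in the control pair and 0.0867 and 0.0633 in the knockdown pair. Divided by WDR55 it was 0.255 and 0.26 in the control pair and 0.178 and 0.119 in the knockdown pair. In each library pair DND1 was therefore lower in the knockdown relative to either neighbour, ratios that do not depend on library scaling.

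**Figure D3:**
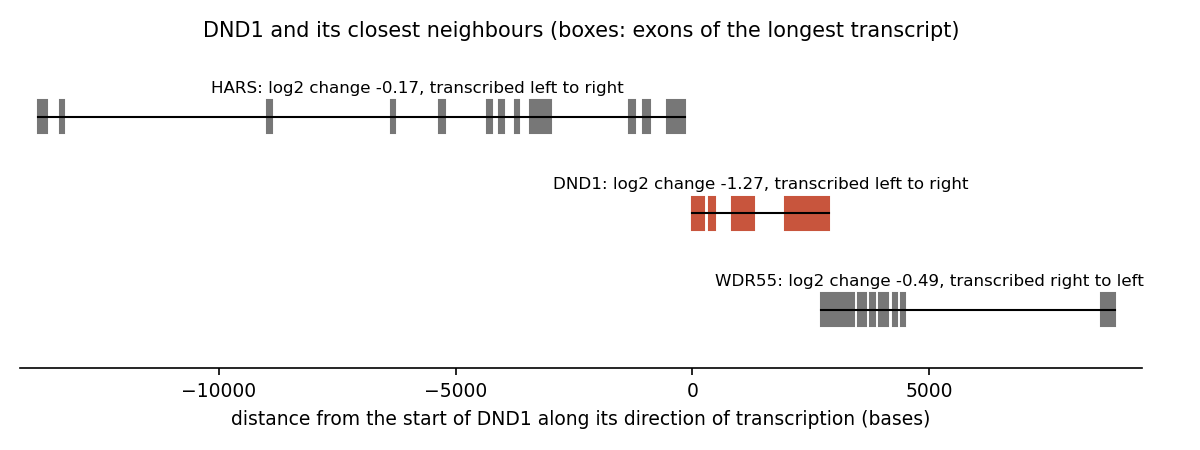
Exons (boxes) of the longest transcript of DND1, HARS and WDR55 by distance in bases from the start of DND1 along its direction of transcription, with each gene's log2 change. HARS ends 155 bases before DND1 starts, and WDR55 runs the other way and shares 160 bases with the last DND1 exon; the changes are -0.17, -1.27 and -0.49.

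The 155 bases between the end of HARS and the start of DND1 are all the intergenic sequence DND1 has upstream, and they are shown beside the 155 bases before the annotated start of DAZL because these 2 genes moved in opposite directions. Capitals mark CG pairs, the sites of DNA methylation. The sequences are from RefSeq on Sscrofa 11.1, each 5′ to 3′ on the minus strand, chr2:142387408-142387562 for DND1 and chr13:3783849-3784003 for DAZL.
DND1: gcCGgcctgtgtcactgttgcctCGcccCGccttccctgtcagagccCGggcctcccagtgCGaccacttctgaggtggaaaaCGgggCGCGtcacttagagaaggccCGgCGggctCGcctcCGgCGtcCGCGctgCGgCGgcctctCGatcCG
DAZL: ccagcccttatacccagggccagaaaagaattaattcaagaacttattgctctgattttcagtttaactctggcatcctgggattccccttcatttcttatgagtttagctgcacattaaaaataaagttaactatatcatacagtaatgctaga
The DND1 stretch holds 19 CG pairs, and 16.2% of 19532 windows of this length before protein-coding genes hold as many or more (median 8). The DAZL stretch holds 0, while 92.5% of the windows hold at least 1. In the DAZL model the first exon is 1120 bases long with 3 coding bases, so the annotated start lies far before the start codon. LIN28A had 10 CG pairs in its window, LIN28B 6 and ELAVL2 5. The E-box CACGTG (in 4.5% of all windows), the E2F core TCCCGC (18.9%) and TATAAA (6.0%), each searched on both strands, had 0 matches in the windows of all 5 genes. The E-box holds a CG pair, as does the E2F core, so those motifs overlap the first count.

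DAZL went the other way. DAZL (chromosome 13, 3762896 to 3783848, minus strand, protein-coding) was at 2.06 and 2.70 FPKM in the control libraries and at 3.36 and 3.33 FPKM in the knockdown libraries. The knockdown libraries were both above both control libraries and nearly equal, and control library 1 was the lowest. The counts were 127, 154, 226 and 200. DAZL rose 1.46-fold (95% interval 1.24 to 1.71; log2 change 0.54, SE 0.117, edgeR adjusted p = 3.30e-05), in a fit where 22.7% of all tested genes were called higher. The mean ± SD was 2.38 ± 0.453 FPKM in the control and 3.34 ± 0.0212 FPKM in the knockdown (n = 2 each). The 2 control libraries differed by a factor of 0.763 in counts scaled to library size (exact binomial p = 0.027, adjusted over 8 pairs 0.111). The log2 change was 0.35 without control replicate 1 and 0.74 without control replicate 2. On log2(FPKM + 1) with no filter on low values, limma gave 0.37 with an adjusted p of 0.132, which ends the call. Its 3899-base transcript has 11 exons, 888 coding bases and 40.1% GC, and after removing the length and GC trends the log2 change was 0.43 (edgeR adjusted p = 0.00214). Its neighbours lie 87823 bases (RFTN1) and 208381 bases (PLCL2) away, and neither passed the test (log2 -0.11 and -0.18).

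The order of DND1 and DAZL changed between the groups. The FPKM of DND1 divided by that of DAZL was 3.29 and 2.53 in the control pair and 0.935 and 0.643 in the knockdown pair. DND1 thus stood above DAZL in both control libraries and below it in both knockdown libraries. Relative to DDX4, a germ cell gene whose log2 change of -0.12 did not pass (edgeR adjusted p = 0.601), DND1 was at 2.94 and 3.49 in the control pair and 1.56 and 1.15 in the knockdown pair. DAZL relative to DDX4 was at 0.896 and 1.38 in the control pair and 1.67 and 1.79 in the knockdown pair. Among the 10 germ cell markers 9 were tested, of which 3 rose, 2 fell and 4 did not pass. The 2 that fell were UCHL1 and ZBTB16, the targeted gene. In the same fit 46.4% of all tested genes were called, 22.7% higher and 23.8% lower. After removing the length and GC trends 2 germ cell markers rose and 1 fell. The summed level of the 10 markers was 146 FPKM in each control library and 114 and 109 in the knockdown libraries. The fall in that sum came from UCHL1: the 9 others summed to 24.6 and 25.4 FPKM in the control and 24.6 and 24.2 FPKM in the knockdown. Of 8 Sertoli cell markers 6 rose and 1 fell, with a summed level of 2691 to 2720 FPKM in the control libraries and 2848 to 2877 FPKM in the knockdown libraries. Of 5 peritubular markers 4 rose and 1, TAGLN, fell, but after removing the length and GC trends 5 rose and 0 fell. They summed to 5304 to 5389 FPKM in the control and 5127 to 5230 FPKM in the knockdown, but without TAGLN to 3458 to 3470 and 3708 to 3788 FPKM. The part of these cell types in the changes of DND1 and DAZL was not tested.

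ELAVL2 did not pass the test. ELAVL2 (chromosome 1, 198964070 to 199135815, plus strand, protein-coding, 26 transcripts in the tables) was at 2.50 and 2.76 FPKM in the control libraries and 3.12 and 2.63 FPKM in the knockdown libraries, from 157, 158, 204 and 154 counts. Knockdown library 1 was the highest, and knockdown library 2 lay between the controls. The log2 change was 0.13 with a 95% interval of -0.11 to 0.36 (edgeR adjusted p = 0.405), so at this depth a level between 0.928 and 1.28 times control is within the interval. Without knockdown replicate 1 the log2 change was -0.01, so its direction rested on that library. In order of FPKM the control ran DND1, ELAVL2, DAZL, LIN28B and LIN28A, where ELAVL2 and DAZL did not differ beyond their spread. In the knockdown the order was DAZL, ELAVL2, DND1, LIN28B and LIN28A, and of these the FPKM of ELAVL2 and DND1 overlapped.

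ELAVL1 and ELAVL3, relatives of ELAVL2, passed the test in opposite directions. ELAVL1, the family member present in most cell types, was at 89.5 ± 3.27 FPKM in the control and 91.5 ± 0.75 FPKM in the knockdown. It rose 1.08-fold by counts (edgeR adjusted p = 0.00139), but its FPKM overlapped between the groups. The call of ELAVL1 was lost in 4 of 14 alternatives, with limma on log2(FPKM + 1) (0.03, adjusted p = 0.481), in the other 2 limma settings, and without control replicate 1 (0.06, edgeR adjusted p = 0.251). ELAVL3, known mainly from neurons, was at 3.22 and 3.32 FPKM in the control libraries and 1.41 and 1.16 FPKM in the knockdown libraries. ELAVL3 fell to 0.405 times its control level (log2 -1.31, SE 0.124, edgeR adjusted p = 7.32e-19) and stayed between -1.45 and -0.90 over the 14 alternatives. ELAVL4, also a neuronal member, was at 1.64 ± 0.17 and 1.85 ± 0.311 FPKM and did not pass (adjusted p = 0.243, edgeR). ELAVL3 divided by ELAVL2 was 1.29 and 1.2 in the control pair and 0.452 and 0.441 in the knockdown pair. The difference between the changes of ELAVL2 and ELAVL3 was not tested.

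LIN28B and LIN28A were at the edge of detection. LIN28B (chromosome 1, 71173291 to 71296131, plus strand) had 13 and 8 counts in the control libraries and 9 and 10 counts in the knockdown libraries. In FPKM it stood at 0.58 and 0.28 in the control and 0.30 and 0.58 in the knockdown, so the groups overlapped fully. The log2 change was -0.20 with a 95% interval of -1.151 to 0.755 (edgeR adjusted p = 0.776), an interval that reaches from 0.45 to 1.69 times control. Its FPKM also moved with the transcript that the reads were assigned to. LIN28B has transcripts of 792 and 2095 bases, and the length used was 1631.42, 2095.00, 1891.02 and 1314.57 bases in the 4 libraries, the shorter lengths going with the higher FPKM values.

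LIN28A (chromosome 6, 83806178 to 83818550, plus strand) had 1 and 1 counts in the control libraries and 2 and 1 counts in the knockdown libraries. It was removed by the low-count filter and not tested, and no fold is given because neither group exceeded 3 counts in all. A floor of 3 counts corresponds to 0.592 and 0.642 FPKM in the control libraries and 0.46 and 0.515 FPKM in the knockdown libraries, counting error only. The LIN28A model holds 618 bases, all 618 of them coding, so reads from any untranslated part of its mRNA would not have been assigned to it. A low level of this spermatogonial marker could therefore be missed at this depth. The counts of all 5 genes were whole numbers in each library, as were those of most genes with counts.

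**Figure D4:**
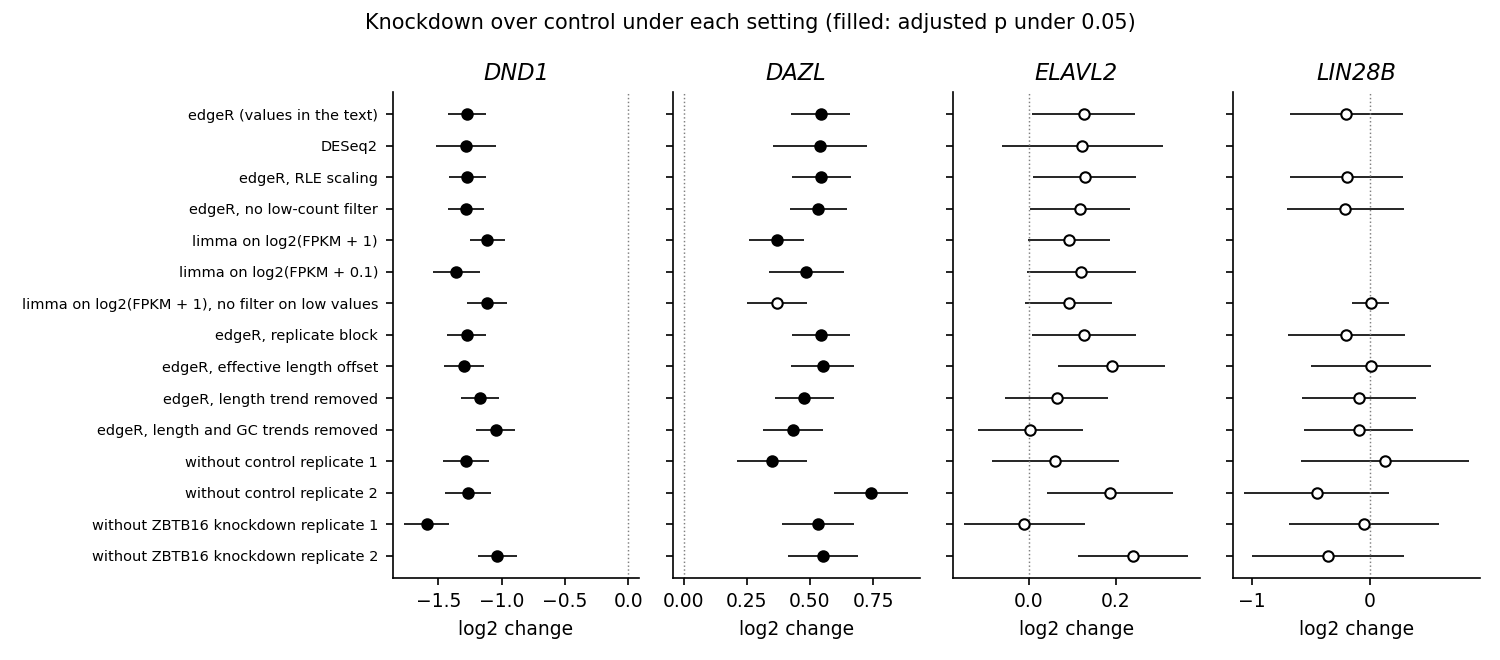
Log2 change of knockdown over control (points) with its SE (lines) for the 4 tested genes under each test, scaling, filter or left-out library, filled where the adjusted p was under 0.05; LIN28B has no value where a setting gave none. DND1 lies between -1.59 and -1.03 and DAZL between 0.35 and 0.74 over the 14 alternatives, while ELAVL2 and LIN28B cross 0.

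Other relatives of these genes differed among themselves. RBM46, an RNA-binding protein of the germ line related to DND1, was at 1.17 and 1.27 FPKM in the control libraries and 2.11 and 2.15 FPKM in the knockdown libraries. RBM46 rose 1.81-fold (log2 0.85, SE 0.158, edgeR adjusted p = 1.23e-06), in the opposite direction to DND1. NANOS2, which maintains spermatogonial stem cells in mice, had 1 and 0 counts in the control and 0 and 3 in the knockdown. NANOS1 was at 0.57 ± 0.24 and 0.81 ± 0.212 FPKM and did not pass (adjusted p = 0.206, edgeR). BOLL, the relative of DAZL that acts later in meiosis, was at 0.3 FPKM in each group and was not tested. Of 8 relatives 6 were tested, with 3 called higher, 1 lower and 2 not passing. Among all genes tested 22.7% were called higher and 23.8% lower. The third relative that rose, A1CF, was at 0.02 to 0.11 FPKM. DESeq2 called 2 relatives higher, and each limma setting called 1.

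The machinery that DND1 and NANOS proteins recruit moved mostly upward by small steps. Of 15 tested genes of the CCR4-NOT complex with its TOB cofactors and the Pumilio proteins, 11 rose, 0 fell and 4 did not pass, with a median log2 change of 0.26 against 0.00 over all genes tested. Over all genes 22.7% were called higher and 23.8% lower. After removing the length and GC trends 9 rose and 2 fell, with a median of 0.21. CNOT1, the scaffold of the complex, went from 35.6 ± 0.863 to 44.1 FPKM, equal in both knockdown libraries (log2 0.32, edgeR adjusted p = 2.78e-24). The ubiquitin ligase CNOT4 rose 1.51-fold from 9.61 ± 0.813 to 14.3 ± 0.877 FPKM and the subunit CNOT3 1.23-fold. CDKN1B and LATS2, whose mRNAs DND1 is known to protect from microRNAs in human cells, did not pass. Their log2 changes were -0.04 and -0.01 (edgeR adjusted p = 0.62 and 0.853), at 29.9 ± 1.8 and 23.4 ± 0.177 FPKM in the knockdown. After removing the length trend alone LATS2 was called lower (edgeR log2 -0.11, adjusted p = 0.0153).

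Most partners of DAZL rose, while most of its known target mRNAs did not pass, and the contrast of these lists was not tested. Of 7 tested partners 5 rose, 1 fell and 1 did not pass (median log2 0.17), beside 22.7% higher and 23.8% lower over all genes tested. With limma on log2(FPKM + 1), or without control replicate 1, 3 rose. PABPC1, the main cytoplasmic poly(A)-binding protein, went from 301 ± 3.37 to 440 ± 2.4 FPKM (log2 0.60, SE 0.019, edgeR adjusted p = 9.52e-69). The partners DZIP1 and DAZAP1 rose 1.26-fold and 1.16-fold. DYNLL1, a dynein light chain, fell by 0.19 on the log2 scale, but rose by 0.25 with the length trend removed, so its direction depended on that step. Of 5 tested target mRNAs 1 rose, 0 fell and 4 did not pass. That 1 was SDAD1 (log2 0.16, edgeR adjusted p = 0.00409), and with DESeq2, with limma, or without control replicate 1 or knockdown replicate 2, 0 were called. The meiotic axis protein SYCP3 was at 5.29 ± 0.714 FPKM in the control and 4.28 ± 0.354 FPKM in the knockdown (adjusted p = 0.469, edgeR). DDX4, also a target, did not pass, as given above.

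The let-7 axis, on which LIN28 proteins act, was expressed, and let-7 itself was not measured. Of 14 tested genes of let-7 maturation and silencing, 6 rose, 2 fell and 6 did not pass (median log2 0.07). Over all genes tested 46.4% were called, so 8 of 14 is near the background, and after removing the length and GC trends 5 rose and 5 fell. TARBP2, the partner of DICER1, fell from 18.6 ± 0.0283 to 10.3 ± 0.17 FPKM (log2 -0.73, edgeR adjusted p = 3.83e-13). DICER1, which cuts the precursor, rose 1.26-fold, and XPO5, which exports it, 1.19-fold. Removing the length and GC trends took the edgeR log2 change of TARBP2 from -0.73 to -0.48. The same step took DICER1 from 0.33 to 0.17 and XPO5 from 0.25 to 0.14, and these genes stayed called. ZCCHC11, the uridylase TUT4 that LIN28A recruits, rose 1.28-fold from 7.34 ± 0.283 FPKM. Among 18 tested target genes of let-7, 12 rose, 1 fell and 5 did not pass (median log2 0.22, against 9, 1 and 8 after removing the length and GC trends, 7, 0 and 11 with DESeq2 and 5, 1 and 12 with limma on log2(FPKM + 1)). IGF2BP2, an mRNA-binding protein, rose 1.32-fold, the receptor IGF1R 1.23-fold, the transcription factor E2F5 1.40-fold and the kinase CDK6 1.24-fold. The call of CDK6 was lost after removing the length and GC trends (edgeR log2 0.08, adjusted p = 0.149).

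**Figure D5:**
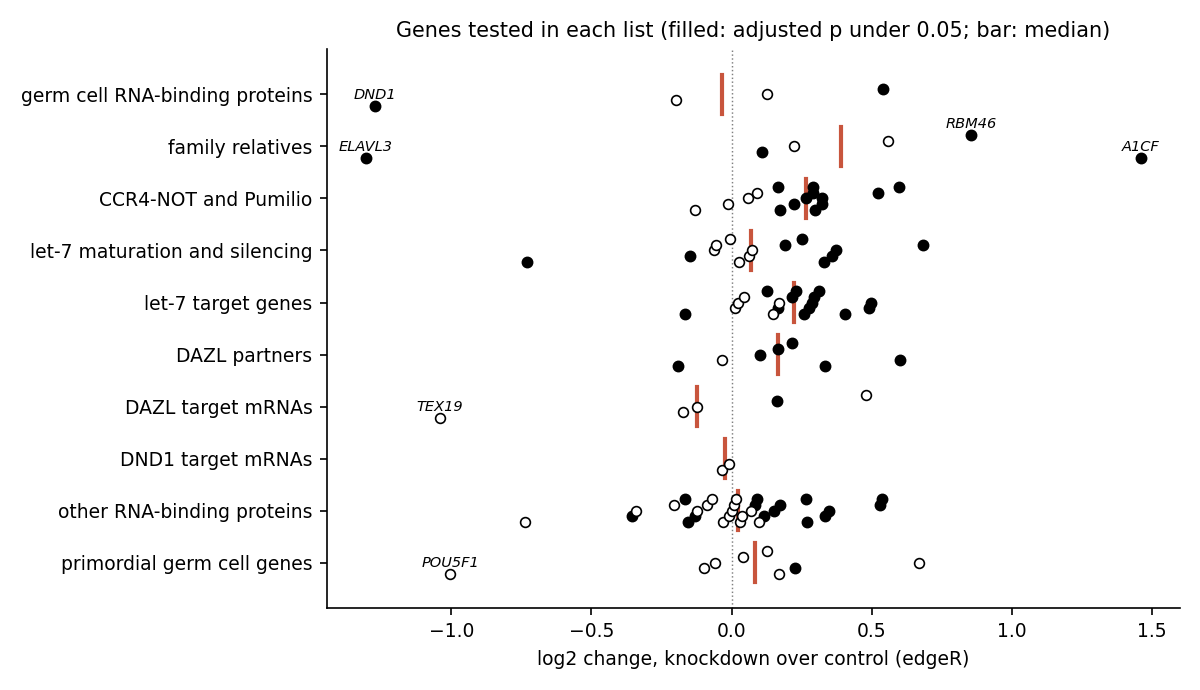
Log2 change of knockdown over control for each tested gene of each list (points; filled where the edgeR adjusted p was under 0.05), with the median of each list as a red bar and the genes farthest from 0 named. DND1 and ELAVL3 lie lowest at -1.27 and -1.31, while most CCR4-NOT and let-7 target genes lie just above 0.

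Other RNA-binding proteins and early germ cell genes showed no common direction. Of 30 tested RNA-binding proteins 11 rose, 4 fell and 15 did not pass (median log2 0.02). That is 15 of 30 called, near the 46.4% over all genes, and after removing the length and GC trends 10 rose and 9 fell. QKI rose 1.20-fold, MEX3C 1.44-fold, CPEB2 1.45-fold and PTBP3 1.21-fold, while DDX6, the helicase of P-bodies, was at 35.2 ± 0.735 and 35.6 ± 0.163 FPKM (adjusted p = 0.426, edgeR). PTBP3 was not called after removing the length and GC trends (edgeR log2 0.08, adjusted p = 0.086). Of 12 primordial germ cell genes 8 were tested, and KIT, the receptor of stem cell factor, rose (log2 0.23, edgeR adjusted p = 0.00196) while the other 7 did not pass. The call of KIT held in 7 of 14 alternatives. It was lost with DESeq2 (adjusted p = 0.0679) and in each limma setting. Removing the length trend, alone or with the GC trend, also ended the call (edgeR log2 0.13, adjusted p = 0.0918 with both removed). POU5F1, the pluripotency factor OCT4, was at 1.23 and 0.98 FPKM in the control libraries and 0.86 and 0.27 FPKM in the knockdown libraries, and missed the threshold (edgeR log2 -1.0, adjusted p 0.0563). NANOG, SOX2, DPPA3 and DPPA5 were at 0 to 0.20 FPKM and were not tested.

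The genes with the most similar profile over the 4 libraries were named by distance on centred log2(FPKM + 1) among 11493 genes with a symbol and a mean of at least 1 FPKM. They were LAMTOR2, TYROBP and ISOC2 for DND1 (distances 0.065, 0.1 and 0.111), POC1B, EBAG9 and TRPT1 for DAZL, and CCDC138, GFRA3 and ZMYM4 for ELAVL2. LAMTOR2 was at 76.45 and 77.63 FPKM in the control libraries and 38.22 and 30.14 FPKM in the knockdown libraries, so its knockdown library 2 was also the lowest. TYROBP, an adaptor protein known from myeloid cells, had a log2 change of -0.76 (edgeR adjusted p = 2.51e-12). After removing the length and GC trends it was -0.16 and not called (adjusted p = 0.177, edgeR). The 5 macrophage markers summed to 26.8 and 28.1 FPKM in the control and 21.4 and 23.1 FPKM in the knockdown. Of these 1 was called higher, 2 lower and 2 did not pass, beside 22.7% higher and 23.8% lower over all genes tested. With DESeq2, or after removing the length and GC trends, 0 were higher and 1 was lower. The part of these markers in the level of DND1 was not tested. With 4 libraries in 2 groups such likeness describes these samples only.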

How the data were processed

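Per the submitters' processing notes, the tools were SOAPnuke 2.1.0, HISAT2 2.2.1, bowtie2 2.3.5 and RSEM 1.3.3, on the pig assembly Sscrofa 11.1. The authors deposited expected counts, FPKM and TPM per gene, with transcript and effective lengths in bases. TPM was not used. Fold changes from limma are on the log2(FPKM + pseudocount) scale, which understates changes of low genes.

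Expected counts were rounded and fitted with edgeR 4.0.16 in R 4.3.3 on all 4 libraries (TMM scaling, filterByExpr with a minimum count of 10 and a minimum total of 15, two-sided quasi-likelihood test, Benjamini-Hochberg over all tested genes). SE is the log2 change over the square root of F. Alternatives used DESeq2 1.42.0, limma 3.58.1 (FPKM of at least 1 in 2 libraries, pseudocounts 1 and 0.1) and trends from mgcv 1.9.3, and scripts were tested on simulated data. An exact permutation test of 2 against 2 libraries cannot give a two-sided p below 0.333. Members and lists were chosen with earlier results of these data known. In each list up to 4 genes with the smallest p and a mean of at least 1 FPKM were named, with neighbours and nearest profiles. A gene that this rule names is not reported here. TUT4 and TUT7 were found under older symbols, and NANOS3 and PATL2 matched no row. Positions and sequences come from RefSeq for the same build.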

Additional observations from a re-analysis of the deposited data

How the results depend on the processing

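The count of called genes was 7319 by edgeR, 4784 by DESeq2 and 4438 by limma on log2(FPKM + 1) with no filter on low values. It ranged from 6040 to 6265 when each library was left out in turn. By limma on log2(FPKM + 1) 34.4% of called genes were higher, against 48.8% by edgeR. DND1 was called lower under all 14 alternatives (log2 -1.59 to -1.03), and DAZL was called higher under 13 of 14, the exception being limma with no filter on low values (0.37, adjusted p = 0.132). LIN28B turned to 0.011 with limma and no filter and to 0.013 with the effective length offset, neither of them called. Leaving out 1 library at a time gave -0.45 to 0.13 for LIN28B, -0.01 to 0.24 for ELAVL2, -1.59 to -1.03 for DND1 and 0.35 to 0.74 for DAZL. DESeq2 gave LIN28B no adjusted p, and limma with the filter gave it no value. Among other named genes DYNLL1 turned to 0.25 with the length trend removed and 0.22 with both the length and GC trends removed, and ZMYM4 turned to -0.012 with the latter. Genes not called by edgeR also changed sign with the length trend removed, SYCP3 to 0.13 and CDKN1B to 0.057, and LATS2, IK and HACE1 crossed 0 under at least 1 alternative, without a call there. DHDDS, next to LIN28A, was at 0.16 by edgeR (adjusted p = 0.0193) and turned to -0.054, -0.057 and -0.054 with limma (pseudocounts 1 and 0.1, and no filter) and to -0.01 with the effective length offset. The cause of these turns was not tested. Removing the length and GC trends together was an alternative chosen after the data were seen. Deviations of libraries with the same number were not correlated (r = 0.00036 over 15763 genes). That value includes genes with few counts, whose counting error can hide a shared experiment, so it cannot decide on pairing. The numbers were taken as names only. With the replicate block 7480 genes were called, DND1 was at -1.27, DAZL at 0.54, ELAVL2 at 0.13 and LIN28B at -0.20. Depth limits LIN28A and LIN28B, which held 1 to 13 counts a library.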
